A study of Homo sapiens with 18 samples.

Results

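The protein-coding genes of chromosome 1, on its short arm (1p) and long arm (1q), were examined gene by gene and by position in 6 clones of RPE1, a human cell line from retinal pigment epithelium immortalised with telomerase. All protein-coding genes of the chromosome with a mean of 0.5 RPKM or more over 18 libraries were selected, which gave 826 members of the 1963 protein-coding chromosome 1 genes listed, among 57773 listed genes of all kinds. RPKM is reads per kilobase of gene and per M reads (M, mega). The members comprised 464 genes on 1p and 362 on 1q. The chromosome was singled out because its transcripts were known from these same libraries to lie low in 1 tetraploid clone, so the level of the chromosome as a whole in that clone is a description and carries no test.

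The 6 clones descend from cells that outlived 72 h with the Aurora kinase inhibitor ZM447439 at 2.5 uM and that were cloned from single cells after some weeks of growth, with ploidy read by flow cytometry. They form 3 pairs, each of 1 tetraploid clone (4N-1, 4N-2 or 4N-3) and 1 diploid clone (2N-1, 2N-2 or 2N-3) picked from the same plates. Both clones of pair 2, named s2_4N and s2_2N in the labels, had also been stained with a Hoechst dye before sub-cloning. Each group is therefore 1 clone with 3 libraries (A, B and C), every clone had met the drug, and no untreated parental line is compared here. A difference between groups is a difference between these clones, and the spread between the 3 libraries of a clone does not measure how clones of 1 ploidy vary. In bulk RNA, fewer cells that express a gene and less RNA per cell cannot be told apart. The libraries held 37.2 to 54.4 M reads in genes, and the members had a median of 2047 reads per library. Library A of 2N-3 and, less so, library C of 4N-3 stood apart from their clone mates, with a median absolute log2 difference of 0.462 and 0.187, against 0.0576 to 0.122 for the libraries of the other 4 clones. Of 7 markers of retinal pigment epithelium, RPE65, RLBP1, PMEL, TYR and TTR lay at or below 0.0487 RPKM in every library, while BEST1 lay at 0.0744 to 0.476 and MITF, a long gene with 15251 reads in all, at 0.0647 to 0.102. The simple-epithelium keratins KRT8 and KRT18 lay at 3.79 to 7.76 and 64.7 to 122 RPKM, but the epithelial surface genes CDH1 and EPCAM at or below 0.00397. The mesenchymal gene VIM lay at 355 to 734 RPKM, and the blood and endothelial markers PTPRC and CDH5 at or below 0.00263.

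A cell that leaves mitosis without dividing doubles every chromosome, and its descendants often lose or gain single chromosomes. Transcript levels of most genes tend to follow the number of gene copies, whereas genes under strong feedback or signal control can depart from it. Genes of a lost chromosome are therefore often seen as a long run of neighbours that shift together by a modest amount, with single genes that depart from the run. DNA copies were not measured in these libraries: only RNA was, and a lost copy cannot be told apart from less RNA per copy.

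Promoter sequences are shown for the members farthest below and above the other clones in 4N-2, so that the start sites of genes that lie in the same low chromosome can be compared. They are from RefSeq (GRCh38.p14), each 300 bases from 250 before to 50 after the start, written 5′ to 3′ on the strand of the gene. Capitals mark matches, on either strand, to the letters of the CCAAT box (CCAAT), the TATA box (TATAAA), the GC box (GGGCGG), the site of AP-1 factors (TGAGTCA) or the E-box (CACGTG). PTGFRN (chr1:116909666-116909965, plus strand) and GSTM3 (chr1:109740989-109741288, minus strand) were among the 3 lowest members, and G0S2 (chr1:209675162-209675461, plus strand) and BTG2 (chr1:203305269-203305568, plus strand) among the 3 highest.
PTGFRN: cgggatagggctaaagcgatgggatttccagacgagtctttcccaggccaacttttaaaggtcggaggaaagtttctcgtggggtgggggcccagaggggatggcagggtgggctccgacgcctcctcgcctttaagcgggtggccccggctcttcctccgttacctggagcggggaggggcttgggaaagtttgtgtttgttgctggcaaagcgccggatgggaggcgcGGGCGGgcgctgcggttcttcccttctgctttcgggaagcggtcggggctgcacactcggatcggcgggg
GSTM3: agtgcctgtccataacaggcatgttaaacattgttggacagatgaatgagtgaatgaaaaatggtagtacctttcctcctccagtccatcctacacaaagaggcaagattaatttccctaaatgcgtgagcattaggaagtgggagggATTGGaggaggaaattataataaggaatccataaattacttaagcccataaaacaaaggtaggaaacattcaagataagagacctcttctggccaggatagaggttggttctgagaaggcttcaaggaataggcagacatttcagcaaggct
G0S2: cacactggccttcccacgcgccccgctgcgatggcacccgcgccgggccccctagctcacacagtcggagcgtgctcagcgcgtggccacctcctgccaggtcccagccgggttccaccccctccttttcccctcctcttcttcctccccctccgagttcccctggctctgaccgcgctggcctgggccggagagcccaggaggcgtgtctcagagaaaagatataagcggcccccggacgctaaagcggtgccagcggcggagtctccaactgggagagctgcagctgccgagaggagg
BTG2: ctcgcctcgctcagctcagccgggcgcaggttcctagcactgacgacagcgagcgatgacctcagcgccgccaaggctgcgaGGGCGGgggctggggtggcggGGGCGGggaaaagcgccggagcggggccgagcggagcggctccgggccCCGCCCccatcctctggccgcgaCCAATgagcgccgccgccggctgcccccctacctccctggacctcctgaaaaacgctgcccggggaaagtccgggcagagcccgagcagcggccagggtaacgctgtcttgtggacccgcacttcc
The GSTM3 window held 1 CG pair and a CCAAT match on the opposite strand. The PTGFRN and G0S2 windows held 25 and 24 CG pairs, with 1 GGGCGG match in the first and no match to any of the 5 sets of letters in the second. BTG2 had 34 CG pairs, 3 GGGCGG matches and 1 CCAAT match.

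Members on both arms lay low in 4N-2 and in no other clone. For each gene, the mean log2(RPKM + 0.05) of a clone was taken less the mean of the 6 clones. The median of this deviation in 4N-2 was -0.20 over the 1p members and -0.22 over the 1q members. Its 3 libraries gave -0.21, -0.23 and -0.18 on 1p and -0.23, -0.25 and -0.20 on 1q. Protein-coding genes of the other chromosomes had a median of 0.07 in 4N-2. Measured against them, chromosome 1 lay at -0.277, -0.283 and -0.277 in the 3 libraries of 4N-2, and at 0.0385 to 0.0740 in the other 15, with no overlap. On the same scale 1q lay slightly below 1p in each library of 4N-2, at -0.286, -0.301 and -0.291 against -0.266, -0.276 and -0.270. The 6 deviations of a gene sum to 0, so a low 4N-2 sets the others slightly above 0.

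**Figure D1:**
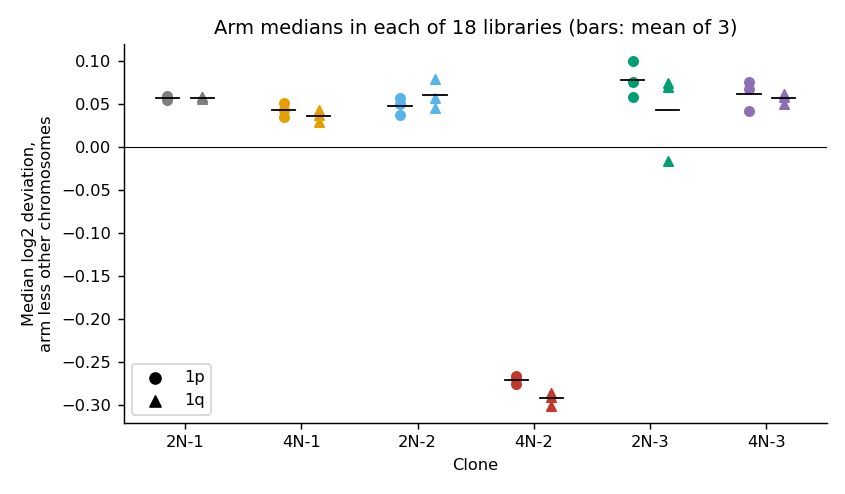
Median log2 deviation of 1p members (circles) and 1q members (triangles) from the mean of the 6 clones, less the median of the other chromosomes, for each of 18 libraries; bars are means of 3 libraries. The 6 points of 4N-2 lie between -0.301 and -0.266, and every other point lies between -0.0158 and 0.0998.

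Gene by gene, 4N-2 was set against the mean of the other 5 clones, and this log2 difference is the value given from here on unless another comparison is named. Its median was -0.26 over the 826 members, a ratio of 0.837, with the middle part of the genes (25th to 75th percentile) from -0.51 to -0.02. The median was -0.24 on 1p, -0.27 on 1q and 0.08 over 7145 protein-coding genes of other chromosomes. The offset of the members from those genes, -0.34, is a ratio of 0.793, and the loss of 1 of 4 copies would give 0.75 if RNA followed copies exactly. Among 23 chromosomes, chromosome 1 had the lowest median, followed by chromosome 13 at 0.003, and chromosome 9 had the highest at 0.146.

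The shift was broad but did not move every gene. In limma, fitted over all 11976 genes of 0.5 RPKM or more, 430 members (52.1%) were lower in 4N-2 at an adjusted p under 0.05 and 91 (11.02%) were higher. The background over all tested genes was 21.7% lower and 24.3% higher, and nothing is read from this contrast beyond the sorting of the members. The other 305 members were not called, with a median of -0.07 against -0.49 for the lower and 0.46 for the higher genes. The shares were alike on the arms: 242 of 464 members on 1p (52.2%) and 188 of 362 on 1q (51.9%) were lower, and 49 and 42 were higher. Without library A of 2N-3 and library C of 4N-3, 534 were lower and 124 higher. All 3 libraries of 4N-2 lay below all 15 others for 284 members (34.4%) and above them for 39 (4.72%), where the shares over all tested genes were 11.7% and 13.4%.

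Most members that shifted did so modestly. Between -0.6 and -0.2 lay 321 members (38.9%), against 15.1% of the protein-coding genes of other chromosomes. A further 106 lay between -1 and -0.6 and 41 at or below -1. At the other side, 190 members were above 0, of which 14 were above 1. The mean RPKM of 3 members passed 0.5 through 4N-2 alone, and 2 of those, TSPAN1 and PEAR1, were called higher. CENPL, the other of the 3, was not called. The other 823 members included 430 lower and 89 higher genes. Just inside the threshold were CENPL at a mean of 0.5001 RPKM with a difference of 0.10 and GON4L at 0.5006 with -0.56, and just outside it MTR at 0.4987 with -0.18 and AC118549.1 at 0.4974 with -0.75.

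**Figure D2:**
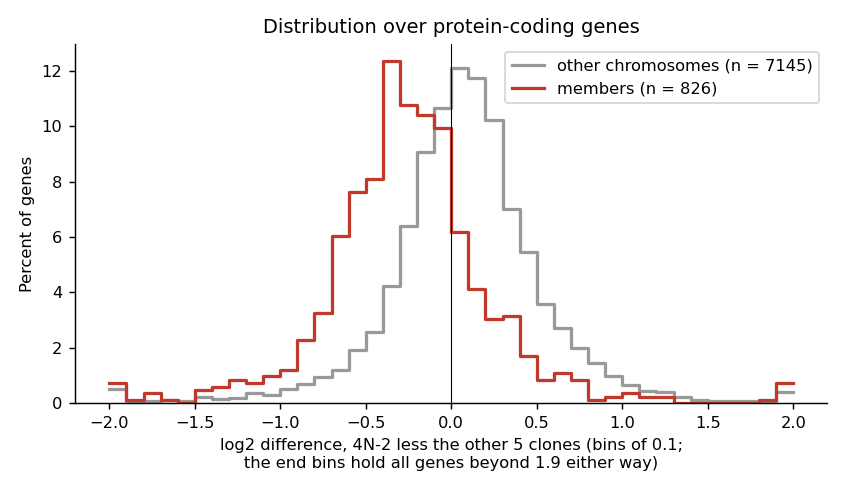
Distribution of the log2 difference between 4N-2 and the other 5 clones in bins of 0.1, as percent of 826 members (red) and of 7145 protein-coding genes of other chromosomes (grey). The members' curve lies to the left, with a median of -0.26 against 0.08, and both curves span both signs.

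The members lay low along the whole chromosome. Positions are those of GENCODE 29 on GRCh38, since the deposited table gives none, and the arms were divided at the gap of 22.5 Mb between SRGAP2C and HIST2H3PS2 (Mb, mega bases). All 23 bins of 10 Mb that held 10 or more members had a median below 0. The values ran from -0.118 at 180 to 190 Mb, where 6 of 16 members were lower, to -0.580 at 100 to 110 Mb, where 22 of 29 were lower. In running medians of 40 neighbours, all 787 windows were below 0 in 4N-2, with a range of -0.42 to -0.11. Windows below 0 numbered 346 in 4N-1, 140 in 2N-3, 124 in 2N-1, 69 in 2N-2 and none in 4N-3. The lowest of them, -0.15 in 4N-1, lay within the range of 4N-2.

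No step of level was found inside the chromosome in 4N-2. A piecewise constant fit, with the number of stretches chosen by BIC (an information criterion that penalises added steps), gave a single stretch from NOC2L to PGBD2 with all 826 members. This rested on library C of 4N-2: without it the fit gave 2 stretches, both low, with a median of -0.19 over 177 genes from NOC2L to SESN2 and -0.30 over 649 from MED18 to PGBD2. Against 4N-1 and 4N-3 alone it gave 3 stretches, at -0.19 (328 genes to LRRC42), -0.37 (252 genes from TMEM59 to MEX3A) and -0.21 (246 genes from LMNA).

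Steps between stretches were also found in 3 other clones. In 4N-1, 101 members from MYSM1 to CEPT1 on 1p lay at 0.18, between flanks at -0.03 and 0.02. In 2N-2, 70 members from SERBP1 to SARS lay at -0.03 and the 191 that followed, from CELSR2 to KIRREL1, at 0.09. BIC for 2N-2 was -3344.31 with 4 stretches and -3342.3 with 1, so these steps were barely preferred. Without library A of 2N-3 the values were -3418.95 and -3392.85, and the stretch up to SARS began at JUN, with 79 members. In 2N-3, 81 members from S100A11 to PRCC lay at 0.20, but without library A of that clone its fit gave a single stretch at 0.06. The chromosome formed a single stretch in 2N-1 and 4N-3.

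**Figure D3:**
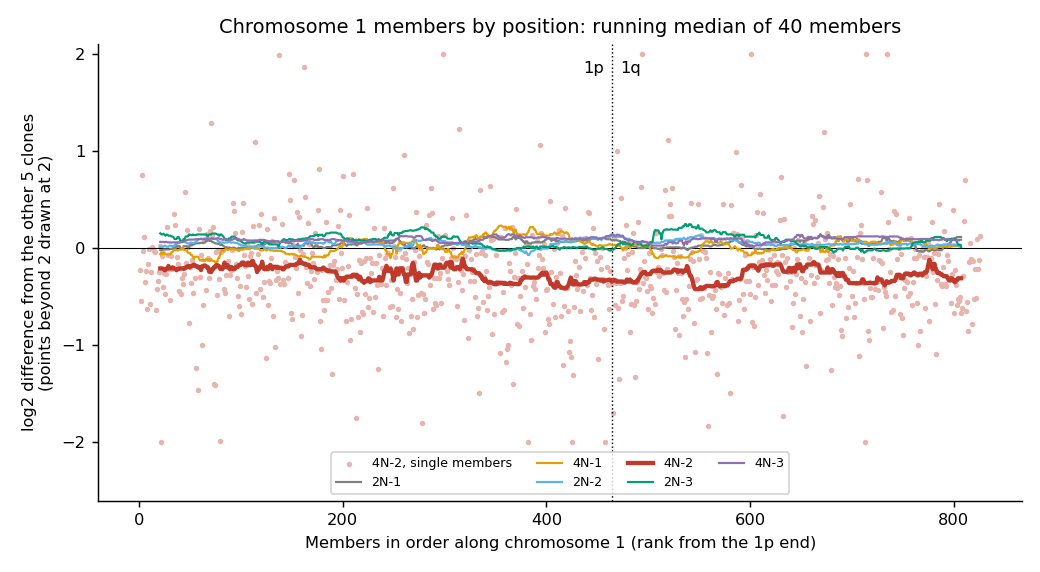
Log2 difference of each clone from the other 5 as a running median of 40 members in order along chromosome 1 (lines), with single members of 4N-2 as points. The 4N-2 line stays between -0.42 and -0.11 on both sides of the dotted line between the arms, and the highest point of any other line is 0.246, in 2N-3.

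Members that were higher in 4N-2 lay among low neighbours. The 10 members nearest to a gene, 5 on each side, had a median difference of -0.25 around higher genes, -0.26 around those not called and -0.26 around lower ones. The longest run of consecutive members above 0 was 5 genes, S100A10, S100A11, S100A6, S100A4 and S100A3, on 1q from 151982915 to 153549372, with a median of 0.45. Below 0 the longest run was 20 genes, from EFNA4 to GON4L at 155063731 to 155859400, with a median of -0.46. It holds MUC1 and FDPS, described with their groups.

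The 8 lowest members whose libraries did not overlap the others were PTGFRN, FNDC10, GSTM3, CHI3L1, GBP1, DHRS3, MUC1 and ARTN. They were chosen on this difference, so their values are a description. PTGFRN, a membrane protein that partners with tetraspanins, lies on 1p at 116910057 to 116990358 and was nearly without reads in 4N-2. Its libraries A, B and C of 4N-2 gave 0.000631, 0.00125 and 0.00112 RPKM, against 1.05 to 2.14 (median 1.63) in the other 15. The log2 difference of -5.04 is bounded by the pseudocount of 0.05. Near the other end of 1p, FNDC10, at 1598012 to 1600096, gave 0.134, 0.0843 and 0.129 RPKM in 4N-2 and 0.765 to 4.98 (median 2.38) elsewhere. Clone 4N-1 was the lowest of the others for this gene, at 0.802 ± 0.033 RPKM (SD, n = 3).

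GSTM3, a glutathione S-transferase of the mu class, gave 0.139, 0.125 and 0.135 RPKM in 4N-2, below 0.479 to 2.78 (median 1.39) elsewhere. It overlaps GSTM5, and with strand use in counting not given in the sources used here, reads of the overlap could belong to either. CHI3L1, a secreted chitinase-like glycoprotein on 1q, gave 0.0486, 0.0385 and 0.0402 RPKM in 4N-2 and 0.0516 to 1.72 (median 0.402) elsewhere. Its level also separated other clones: 1.48 ± 0.22 in 2N-1 but 0.0967 ± 0.052 in 4N-1, and 0.945 ± 0.14 in 2N-3 but 0.138 ± 0.056 in 4N-3 (SD, n = 3). CHI3L1 was lower in the tetraploid clone of every pair, with log2 differences of -3.43 (limma, adjusted p = 1.1e-06) in pair 1, -2.39 in pair 2 and -2.44 (adjusted p = 7.5e-05) in pair 3.

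GBP1, an interferon-induced GTPase, gave 0.513, 0.521 and 0.566 RPKM in 4N-2 and 1.61 to 3.46 (median 2.26) elsewhere. Its highest clone was the tetraploid 4N-1 at 3.38 ± 0.076 RPKM (SD, n = 3). DHRS3, a retinaldehyde reductase of the vitamin A pathway, gave 1.42, 1.43 and 0.891 RPKM in 4N-2, below 3.71 to 7.20 elsewhere. MUC1, a cell-surface mucin, gave 0.609, 0.564 and 0.326 RPKM against 1.14 to 2.88, and overlaps AL713999.1, which had more reads than MUC1 itself. ARTN, a neurotrophic factor of the GDNF family, gave 0.414, 0.294 and 0.252 RPKM against 0.743 to 2.42. The log2 differences of GBP1, DHRS3, MUC1 and ARTN were -2.04, -1.99, -1.83 and -1.80.

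The 8 highest such members were G0S2, PEAR1, BTG2, TSPAN1, ADAMTSL4, NIPAL3, TRNP1 and FBXO44, likewise chosen on this difference. G0S2, an inhibitor of the triglyceride lipase ATGL, gave 30.9, 31.8 and 34.5 RPKM in 4N-2 and 0.888 to 5.34 (median 1.91) elsewhere. Its 10 nearest members had a median of -0.33. PEAR1, a platelet and endothelial receptor with EGF repeats, gave 2.116, 2.136 and 2.098 RPKM in 4N-2 and 0.0868 to 0.265 elsewhere, with neighbours at -0.34. It was a member only through its level in 4N-2. BTG2, an antiproliferative p53 target, gave 9.06, 8.35 and 9.70 RPKM in 4N-2 and 0.626 to 2.62 elsewhere, with neighbours at -0.46.

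Of the remaining 5, TSPAN1, a tetraspanin that also passed the level threshold through 4N-2 alone, gave 1.732, 1.897 and 1.780 RPKM in 4N-2 against 0.306 to 0.595 elsewhere. ADAMTSL4, a matrix protein of the fibrillin network, gave 2.46, 2.51 and 2.14 RPKM against 0.378 to 0.809. It overlaps AL356356.1, which had fewer reads. NIPAL3, named for its likeness to magnesium transporters, gave 3.86, 3.87 and 3.88 RPKM in 4N-2 and 0.644 to 1.27 elsewhere. It overlaps STPG1, which also had fewer reads. TRNP1, a nuclear protein known from brain development, gave 4.88, 4.72 and 4.52 RPKM against 0.740 to 2.09, and FBXO44, an F-box protein of ubiquitin ligases, 1.74, 1.81 and 1.62 against 0.372 to 1.12. In neither of these did 4N-2 stand alone in direction: TRNP1 was higher in the tetraploid clone of pair 1 by 1.00 (limma, adjusted p = 0.00038) and of pair 3 by 1.01 (adjusted p = 0.0013). FBXO44 was higher by 0.92 (limma, adjusted p = 0.0012) in pair 1 and by 0.80 (adjusted p = 0.013) in pair 3.

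**Figure D4:**
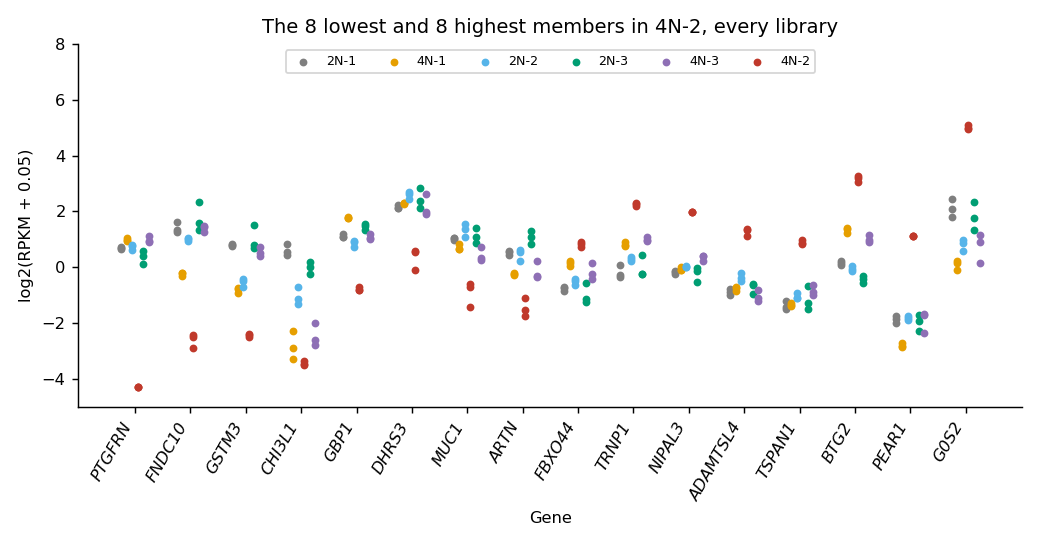
Levels of the 8 lowest and 8 highest members as log2(RPKM + 0.05), 1 point per library, coloured by clone. For these 16 genes, chosen on that separation, the 3 libraries of 4N-2 (red) lie outside the range of the other 15; the distance is widest for PTGFRN (at most 0.00125 against at least 1.05 RPKM) and narrow for CHI3L1 (at most 0.0486 against at least 0.0516).

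Members were also described by function, in 17 lists. Listed genes that were not members are left out of every count and median, so several lists are partial. Members were 7 of 20 matrix genes, 6 of 13 growth signalling genes, 8 of 15 S100 proteins and 7 of 11 on the p53 list. The count of each list is read beside the 52.1% lower and 11.02% higher among all members, and a share near these is no result about the list. All 5 ribosomal proteins of the chromosome were lower, with differences from -0.52 to -0.36 and a median of -0.38, where the median over all tested genes was 0.019. RPS27, of the small subunit, gave 122, 108 and 121 RPKM in 4N-2 and 139 to 330 (median 158) elsewhere. RPL11, of the large subunit, gave 98.4, 86.9 and 96.3 RPKM against 107 to 216. The libraries did not overlap for either gene, but the calls are fragile: adjusted p was 0.0521 for RPL11 with the replicate letter as a block, and its call was lost in 15 of the 18 fits that left out 1 library, those without any 1 library of 4N-2 among them. The call of RPS27 was lost without library B of 4N-2, and that of RPL22 without library A or B. Against 2N-2 alone, none of the 5 was called and their median was -0.31. In the pairs without 4N-2 none was called either, and the median was -0.36 in pair 3 and 0.15 in pair 1.

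Of 4 proteasome subunits, PSMA5 (-0.60) and PSMB2 (-0.47) were lower, while PSMB4 (-0.25) and PSMD4 (-0.19) were not called until library A of 2N-3 was left out. PSMA5 gave 2.27, 2.57 and 2.90 RPKM in 4N-2 and 3.48 to 5.90 elsewhere. Translation factors and tRNA synthetases had 5 lower members of 7 and none higher, with a median of -0.22, though the call of TARS2 (-0.22) was lost without library B of 4N-2. The lowest was the tyrosyl-tRNA synthetase YARS at 1.59, 1.69 and 1.71 RPKM against 2.43 to 3.33. Respiratory chain genes, with 4 lower and 1 higher of 8, were near the share of all members. SDHB of complex II (-0.39) and the ATP synthase subunit ATP5PB (-0.44) were lower. ATP5IF1, the inhibitor of that ATP synthase, was higher by 0.39 at 7.46, 6.65 and 6.65 RPKM, within the range of 4.25 to 9.86 elsewhere, and its call was lost without any 1 library of 4N-2, without library A or B of 2N-1, and when libraries were centred on the other chromosomes.

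Splicing factors and RNA-binding proteins had 9 lower members of 18, near the share of all members, with none higher and a median of -0.34. PRPF38A, a spliceosome component, gave 1.19, 1.13 and 1.13 RPKM in 4N-2 and 1.77 to 2.15 elsewhere. The related PRPF38B gave 4.57, 4.44 and 4.49 RPKM against 5.15 to 8.19. SRSF11 (-0.67) and THRAP3 (-0.66) were lower as well. PRPF38A, like YARS and ATP5PB, overlaps another gene, so some of its reads are uncertain. In the separate comparison of 4N-1 with 2N-1, where the chromosome as a whole did not shift, 11 of the same 18 genes were lower, where 9.53% of all tested genes were.

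Cell division genes had no lower member. Of 12 mitosis genes, 3 were higher, 9 were not called, and the median was 0.10 in a chromosome with a median of -0.26. That median lies beside the value of CENPL (0.10), which passed the level filter only through 4N-2. The mitotic kinase NEK2 gave 4.07, 3.88 and 4.00 RPKM in 4N-2 and 1.22 to 4.47 (median 3.82) elsewhere. The kinesin KIF2C gave 2.60, 2.64 and 2.64 RPKM against 0.887 to 3.24, and CKS1B, a subunit of cyclin-dependent kinases, 11.94, 11.96 and 14.65 against 4.52 to 20.3. The ranges overlap for all 3. The lowest libraries of NEK2 and KIF2C were those of 4N-1, with means of 1.29 ± 0.073 and 0.907 ± 0.031 RPKM (SD, n = 3). That clone is part of the reference: against 2N-2 alone none of the 12 was called, and their median was 0.04. The call of KIF2C was lost without any 1 library of 4N-2 and when libraries were centred on the other chromosomes, and that of CKS1B in 11 of the 18 fits that left out 1 library and with that centring. ASPM, a spindle pole protein, had a difference of -0.29 that was not called, was lower without library A of 2N-3, and was 0.04 against 4N-1 and 4N-3.

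DNA replication and repair genes had 1 lower member of 8 and none higher, with a median of 0.06. The lower gene was MUTYH, a DNA glycosylase, at 0.498, 0.541 and 0.585 RPKM in 4N-2 and 0.621 to 1.16 elsewhere; it overlaps TOE1. CLSPN, a checkpoint adaptor at the replication fork, gave 0.780, 0.689 and 0.994 RPKM against 0.321 to 1.07. Its difference of 0.41 was not called, and was called without library C of 4N-3. The same lists separated 4N-1 from 2N-1, a comparison without 4N-2. All 12 mitosis genes were lower in 4N-1, with a median of -1.31, and all 8 replication and repair genes with a median of -0.95, where 9.53% of all tested genes were lower and 9.64% higher. NEK2 fell by 1.51 (limma, adjusted p = 5.1e-06) and KIF2C by 1.37 (adjusted p = 4.3e-05).

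Targets of the tumour suppressor p53 had the highest median of the 17 lists. Of 7 members, 6 were higher, none was lower and the median was 0.62. The list held 11 genes, MDM4 among them, and those that were not members are not in these counts. MDM4, named after its value was seen, had a mean of 0.453 RPKM and a difference, by reads, of -0.62. The list was also higher without 4N-2. In pair 1, 5 of the 7 were higher with a median of 0.56, where 9.64% of all tested genes were higher. In pair 3, 2 were higher with a median of 0.18, where 1.81% of all tested genes were. Beside BTG2, the stress-induced SESN2 gave 1.26, 1.31 and 1.31 RPKM in 4N-2 and 0.459 to 0.937 elsewhere, with no overlap. GADD45A, a DNA damage response gene, gave 14.7, 13.7 and 16.1 RPKM against 7.40 to 13.8, and the kinase PLK3 7.45, 7.63 and 6.78 against 3.64 to 7.26. For each of these the nearest value elsewhere overlapped the lowest library of 4N-2. Both genes were also higher in 4N-1 than in 2N-1, by 0.79 (limma, adjusted p = 0.00042) and 0.78 (adjusted p = 5.6e-05), while SESN2 was higher in pair 1 by 0.35 (adjusted p = 0.0025) and in pair 3 by 0.80 (adjusted p = 1.3e-05). The exception on the list, picked out after its value was seen, was the lysosomal enzyme FUCA1, with a difference of -0.32 that was not called.

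Early response genes went both ways. IER5 gave 28.7, 29.3 and 34.0 RPKM in 4N-2 and 11.9 to 17.6 elsewhere, and the transcription factor JUN 23.51, 22.61 and 24.98 against 10.7 to 21.1. JUN was not called against 4N-1 and 4N-3 alone (0.37, limma, adjusted p = 0.068). CYR61, a matricellular YAP target, gave 53.9, 55.8 and 69.6 RPKM in 4N-2 and 65.1 to 192 elsewhere, a difference of -0.78. It varied among the other clones by more than that, from 72.0 ± 6.2 in 4N-3 to 186 ± 5.9 in 4N-1 (SD, n = 3). ID3, an inhibitor of bHLH factors, was lower by -0.34 at 39.67, 41.46 and 40.05 RPKM against 44.3 to 83.6, a call lost without any 1 library of 4N-2.

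Metabolic and secretory genes included members that lay further below the other clones than the chromosome as a whole. Sterol synthesis and handling had 4 lower of 6 and a median of -0.74. The sterol pathway enzyme HSD17B7 gave 0.330, 0.377 and 0.330 RPKM in 4N-2 and 0.935 to 1.84 elsewhere, and farnesyl diphosphate synthase, FDPS, 6.85, 7.36 and 8.64 against 15.15 to 29.03. PMVK, phosphomevalonate kinase, gave 0.5996, 0.6449 and 0.7320 RPKM against 0.897 to 2.45. None of these 3 overlapped. In pair 1, which lacks 4N-2, 3 of the 6 were also lower in the tetraploid clone, with a list median of -0.37. Over all tested genes 9.53% were lower in that pair. HSD17B7 was among the 3 (-0.71, limma, adjusted p = 0.0007).

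All 5 members among the 7 genes of the ER stress and secretory list were lower, with a median of -0.59. EDEM3, of ER-associated degradation, gave 0.372, 0.377 and 0.363 RPKM in 4N-2 and 0.439 to 1.29 elsewhere, and the translocon-associated SSR2 gave 8.36, 8.57 and 9.06 against 11.7 to 20.1. The call of UFC1 (-0.38) was lost without library B of 4N-2. Of 5 listed mu-class glutathione S-transferases, which lie side by side on 1p, 4 were members and GSTM5 was not. All 4 were lower, from -2.65 for GSTM3 to -0.95 for GSTM2. GSTM1 gave 0.427, 0.472 and 0.468 RPKM in 4N-2 and 0.791 to 1.27 elsewhere, GSTM2 gave 0.534, 0.563 and 0.536 against 0.878 to 1.31, and GSTM4 0.565, 0.578 and 0.569 against 0.726 to 1.73. These genes are near copies of each other and overlap, so how reads were shared among them is uncertain.

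Interferon-stimulated genes had 5 lower members of 8, near the share of all members, and none higher, with a median of -0.33. Beside GBP1, IFI44L gave 0.555, 0.593 and 0.481 RPKM in 4N-2 and 0.813 to 1.73 elsewhere, IFI44 gave 0.628, 0.666 and 0.611 against 1.10 to 1.62, and the DNA sensor IFI16 1.54, 1.40 and 1.24 against 1.61 to 2.41. In pair 1 the same list went both ways, with 3 lower, 2 higher and a median of -0.02: IFI44L (-0.53, limma, adjusted p = 0.013), IFI44 (-0.38, adjusted p = 0.008) and IFI16 (-0.45, adjusted p = 0.0019) were lower in 4N-1. GBP1 (0.66, limma, adjusted p = 6.4e-05) and its relative GBP3 (0.29, adjusted p = 0.0037), named to complete the count, were higher.

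S100 proteins, small calcium-binding proteins encoded together on 1q, stood on the other side, with 4 higher, 1 lower and 3 not called of 8 and a median of 0.33. S100A10, the annexin A2 ligand, gave 18.8, 17.1 and 17.1 RPKM in 4N-2 and 5.958 to 11.03 elsewhere. S100A6, the most abundant member, gave 390, 406 and 404 RPKM and 224 to 660 (median 280) elsewhere. Its range was stretched by 2N-3, at 426 ± 203 RPKM (SD, n = 3), and its call was lost without any 1 library of 4N-2. S100A3 gave 1.93, 1.62 and 1.47 RPKM against 0.491 to 2.29 and overlaps S100A4. S100A13 was the lower gene, at 2.61, 3.07 and 3.17 RPKM against 4.05 to 10.8. Against 2N-2 alone, 1 of the 8 was higher and 1 lower.

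Cytoskeleton, adhesion and lamina genes had 9 lower, 3 higher and 3 not called of 15, with a median of -0.36. Beside PTGFRN, the adhesion ligand CD58 gave 0.612, 0.569 and 0.517 RPKM in 4N-2 and 0.784 to 1.32 elsewhere. The crosslinker MACF1 (-0.71) and the intermediate filament gene NES (-0.62) were lower with overlapping ranges, and NES was -0.04 and not called against 4N-1 and 4N-3. SH3BGRL3, a small thioredoxin-fold protein outside these lists and the second most abundant member, was higher at 249, 245 and 242 RPKM against 124 to 256.

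Matrix genes, with 4 lower and 1 higher of 7, were near the share of all members. ECM1 was higher, at 14.6, 14.3 and 13.2 RPKM against 7.82 to 11.6, while the collagen-modifying enzyme PLOD1 was lower at 4.165, 4.128 and 3.799 against 4.47 to 6.55. The basement membrane protein NID1 (-0.50) and the microfibril protein MFAP2 (-0.49) were lower, the latter a call lost without any 1 library of 4N-2. Growth signalling genes had 4 lower of 6, none higher and a median of -0.63. The GTPase NRAS gave 2.00, 2.05 and 2.07 RPKM in 4N-2 and 3.64 to 4.93 elsewhere, with no overlap. The Wnt carrier WLS gave 0.415, 0.446 and 0.439 RPKM against 0.673 to 1.01. TGFB2 was lower by -0.90, yet was higher in 4N-1 than in 2N-1 by 1.40 (limma, adjusted p = 3.6e-06), and NOTCH2 (-0.37) was called lower only in fits without library A of 2N-3.

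**Figure D5:**
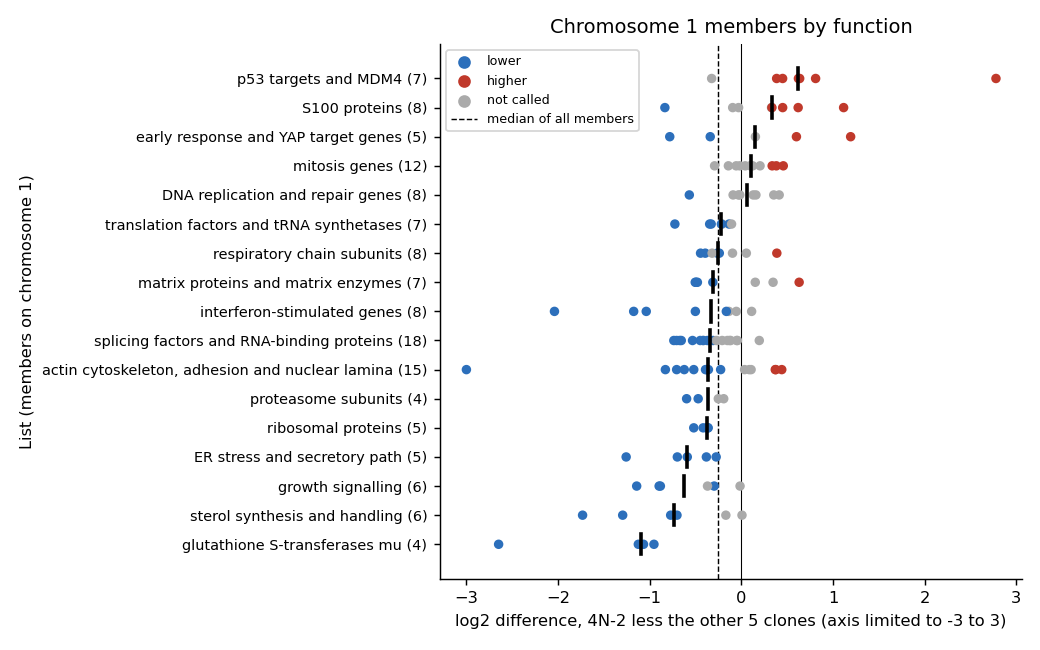
Log2 difference between 4N-2 and the other 5 clones for the chromosome 1 members of 17 gene lists (1 point per gene, blue lower, red higher, grey not called; black bars are list medians, the dashed line is the median of all members). List medians run from -1.10 for the mu-class glutathione S-transferases to 0.62 for p53 targets.

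Against its own diploid partner 2N-2, clone 4N-2 gave 353 lower members (42.7%) and 78 higher (9.44%), with a median of -0.25, where 16.7% and 19.4% of all tested genes were lower and higher. This comparison and the former share the libraries of 4N-2. The other pairs do not contain 4N-2. In pair 1, 110 members were lower and 98 higher (13.3% and 11.9%), beside 9.53% and 9.64% of all tested genes, with a median of -0.03. In pair 3, 19 were lower and 16 higher (2.30% and 1.94%), beside 1.4% and 1.81%, with a median of 0.004. The difference of pair 2 from the mean of pairs 1 and 3 was itself tested. It was lower for 322 members and higher for 75, with a median of -0.22, where 15.8% of all tested genes were lower and 17.6% higher.

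Lower members tended to be longer and steadier between the other clones. The median genomic span was 25.7 kb for lower genes, 17.9 kb for those not called and 11.6 kb for higher ones. Among the 275 members of shortest span, up to 12553 bases, 43.6% were lower and 17.1% higher, and among the 276 longest 60.1% and 7.97%. On other chromosomes, protein-coding genes under 0.5 RPKM had a median span of 90.9 kb and a median difference, by reads, of -0.07. Those at 0.5 RPKM or more had 23.0 kb and 0.08, so the group with longer genes lay lower there too. These groups were split by level, and span by itself was not examined there. Reads also increase with span, and among the 275 members with fewest reads 43.3% were lower, against 57.2% of the 276 with most. The spread of the other 5 clone means does not use 4N-2. Of the 275 members with the smallest spread, 62.9% were lower and 6.18% higher, and of the 276 with the largest 40.6% and 16.7%. Over other chromosomes the genes of smallest and largest spread, cut at the same values, were lower in 17.5% and 21.1%. Plus-strand and minus-strand members had medians of -0.24 and -0.28.

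RefSeq promoter windows were found for 684 members, and differences between the groups were not tested. They held a median of 25 CG pairs for lower members, 26 for those not called and 23 for higher ones, where the 35116 windows of the whole table held 14. GGGCGG was present in 68.8%, 70.8% and 76.9% of the 3 groups and in 45.0% of all windows. CCAAT was in 36.7%, 39.3% and 39.7% against 34.6%, and TATAAA in 5.73%, 4.67% and 3.85% against 11.5%. TGAGTCA was in 3.44%, 3.89% and 5.13% against 4.95%. CACGTG was in 13.5%, 11.7% and 6.41% against 7.26%, where 6.41% is 5 of 78 windows. Both strands were searched.

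Protein-coding genes that the choice of members left out lay low as well, and pseudogenes less so. Deposited RPKM divides by a length that includes introns, so long genes often fall under 0.5 RPKM, and their whole reads were recovered instead. Over 367 protein-coding genes under that level with a mean of 100 reads or more, the median difference was -0.43 and 77.7% were below 0, against -0.07 and 55.96% over 3672 such genes of other chromosomes. The 86 long noncoding genes had a median of -0.22 (-0.03 elsewhere) and the 140 pseudogenes -0.11 (-0.05 elsewhere). Of the pseudogenes 61.4% were below 0, against 57.1% elsewhere. The 76 on 1p had a median of -0.06 and 59.2% below 0, and the 64 on 1q a median of -0.18 and 64.1%. The genes at the ends of the order, named after their values were seen, differed by far more. PROX1, a homeobox factor, had 0.139 ± 0.057 reads per M in 4N-2 and 2.59 to 6.99 in the means of the other clones (SD, n = 3). The collagen gene COL11A1 had 1.17 ± 0.38 against 7.73 to 52.5. In the opposite direction, the neuronal adhesion gene NFASC had 97.1 reads per M in 4N-2 against 15.6 to 22.9, and the semaphorin receptor PLXNA2 111 against 19.7 to 27.6.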

How the data were processed

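Messenger RNA of 18 libraries (6 clones, 3 libraries each) was made into stranded polyadenylated libraries, per the labels' protocols. Per the submitters' processing notes, CASAVA 1.8.2, TopHat2, edgeR and hg19 were used; the annotation release and the use of strand in counting are not given in the sources used here. The authors deposited 1 RPKM value per Ensembl gene and library. For 86.0% of 15831 genes the length these values imply is the genomic span, introns included, within 0.5%, so RPKM understates long genes. Whole reads were recovered from the steps of the values (tolerance 0.01).

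Symbols and positions came from GENCODE 29 (GRCh38) for 52338 genes. limma 3.58.1 in R 4.3.3, tested on simulated data, was fitted to log2(RPKM + 0.05) of the 11976 genes with a mean of 0.5 RPKM or more, with a mean per clone, a trend in the spread, and two-sided p-values adjusted by Benjamini-Hochberg over these genes. A call is an adjusted p under 0.05 at any fold. Reads outside that filter were compared as log2 reads per M with 0.5 reads added. Stretches held 20 genes or more, up to 8, fitted by absolute deviations.

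The labels do not say whether the 3 libraries of a clone are separate cultures, so p-values measure the spread between these libraries. No 2 libraries agreed within sampling noise. The letters A, B and C did not pair libraries across clones. Members, lists and tests were chosen with earlier results of these data known. Named genes are the 8 lowest and 8 highest non-overlapping called members, the 6 most abundant, up to 4 per list by size of difference, and those at the threshold; others are marked as chosen after seeing their values or are ends of runs and stretches. Alternatives were another pseudocount, centring, other level filters, limma-voom on recovered reads, no trend, a replicate block, a tetraploid reference, and each library left out. Values of 2 members that the rule would name are not reported here.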

Additional observations from a re-analysis of the deposited data

Results flagged for a closer look

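For 14 of the 16 lowest and highest members, the difference between 4N-2 and 2N-2 differed from the mean of the differences in pairs 1 and 3, tested directly in limma at an adjusted p under 0.05. These genes were picked for their level in 4N-2, so the test is not independent of that choice and the count of 14 is a description only. PEAR1 and TSPAN1 were members only through 4N-2. Over all tested genes 15.8% were lower and 17.6% higher by the same test. The excess of pair 2, as a log2 value, was below 0 for PTGFRN (-5.48), FNDC10 (-2.62), DHRS3 (-2.16), GBP1 (-1.79), MUC1 (-1.74), ARTN (-0.92) and GSTM3 (-0.88). It was above 0 for G0S2 (5.75), PEAR1 (3.35), BTG2 (1.94), TSPAN1 (1.76), ADAMTSL4 (1.75), NIPAL3 (1.60) and TRNP1 (0.95). For G0S2 the other tetraploid clones moved the opposite way, with -2.004 in pair 1 (limma, adjusted p = 0.00012) and -1.08 in pair 3 (adjusted p = 0.036). CHI3L1 and FBXO44 did not pass this test.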

How the results depend on the processing

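Counts of lower and higher members stayed within 1.5 times the reported ones except where the level filter changed which genes were members. With a mean of 2 RPKM or more, 192 members were lower and 46 higher, and 151 and 39 against 2N-2. With a mean above 0.05 RPKM, the counts were 653 and 142, and 552 and 118 against 2N-2. A pseudocount of 0.5 moved the 4N-2 medians to -0.16 on 1p, -0.18 on 1q and, against the other 5 clones, -0.20 over all members. Centring libraries on the other chromosomes gave -0.26, -0.28 and -0.32, with 500 members lower and 71 higher. Leaving out 1 library at a time gave 1 to 2 stretches, with 78.6% to 100% of the members in a stretch at or below -0.2, and without library C of 4N-2 the second stretch held the 78.6%. Against 4N-1 and 4N-3 alone there were 3 stretches and 60.3%. The cause of these moves was not tested. The letters A, B and C were no sign of pairing, since 1 of 45 correlations of same-letter libraries passed 0.1 and 2 of 18 libraries correlated best with their own letter. With the replicate block, 416 members were lower and 86 higher, and 347 and 71 against 2N-2. limma-voom on recovered reads gave 434 and 91. Of 82 named genes, 62 had the same call in all 24 alternatives, and ASPM alone changed sign (0.043 against 4N-1 and 4N-3, not called in either). Only RNA was measured, with 3 libraries of 1 clone per group.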
